A study of Mus musculus with 6 samples.

Results

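A list of 10 genes of the bone morphogenetic protein (BMP) pathway was followed in the RNA sequencing of primary renal tubular epithelial cells (PTECs) of mice: the ligands Bmp2, Bmp4, Bmp6 and Bmp7, the receptors Bmpr1a, Bmpr2 and Acvrl1, the signal carrier Smad1 and the target genes Id1 and Id3. They are 10 of the 46095 genes in the deposited count table, they were taken by symbol, and all 10 were among the 14611 genes with enough reads to be tested. The list was selected on measured values, with the contrast between the genotypes already known, so its values are a description and no p-value is given for any of the 10. The cells were freshly isolated from the kidneys of mice 10 weeks old in a C57 background. The first 3 libraries are labelled VHL-KO (replicates 1, 2 and 4), from mice with floxed VHL alleles and KspCre. Another 3 are labelled VHL-KO;SETD2-KO (replicates 2, 3 and 4), from mice that carry floxed Setd2 alleles as well. By label, every library therefore shares the deletion of VHL, the adaptor that marks hypoxia-inducible factors for destruction. No library labelled as having intact VHL was analysed here. KspCre is driven by the promoter of Cdh16 (Ksp-cadherin), a cadherin of tubular epithelium, so deletion is limited to cells in which that promoter is or was active. There are as many libraries under each label as mice given for it, and nothing says which mice shared a litter or a day of isolation.

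The largest fold change among the 10 genes was that of Bmp2, whose mean level was 1.86 ± 1.02 CPM (n = 3, ± SD) under the VHL-KO label and 4.47 ± 1.14 CPM (n = 3) where Setd2 was labelled as deleted too, CPM being counts scaled to a common library total. Its fold change was the largest of the 10 in 11 of 15 alternative analyses and that of Bmpr2 in the other 4 (limma-voom, the replicate block, and without VHL-KO replicate 1 or VHL-KO;SETD2-KO replicate 3). Bmp2 and Smad1 were the 2 genes of the list whose libraries did not overlap between the labels, both being higher under VHL-KO;SETD2-KO, as 9.62% of all tested genes were. None of the 10 met the rule for a call, an edgeR p under 0.05 with at least a 1.5-fold change, which 7.33% of all tested genes met. The library labelled VHL-KO replicate 4 was the lowest or the highest of its label in all 10 genes. Without it, Acvrl1 and Id3 met the same rule, both being higher under VHL-KO;SETD2-KO. Of all genes tested then, 15.4% met it in either direction and 8.29% in the higher. The list was selected on this contrast, so these counts are given with nothing read from them.

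BMPs are secreted dimers of the transforming growth factor-β superfamily. They bind a complex of type I receptors (among them Bmpr1a and Acvrl1, also called ALK1) and type II receptors (among them Bmpr2), and the type I kinase phosphorylates Smad1, Smad5 and Smad9, which enter the nucleus with Smad4 and induce genes such as Id1 and Id3. In the kidney, Bmp7 is known for its part in nephron formation and for opposing the profibrotic action of transforming growth factor-β, while Acvrl1 acts mainly in endothelium, where it binds BMP9 and BMP10.

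Short stretches of the promoters are shown because they hold the motifs through which BMP Smads and hypoxia-inducible factors are known to act, the latter being stabilised where VHL is lost. The RefSeq promoter table (GRCm38.p6) held 6 of the 10 genes: Bmp4, Bmp6, Bmpr1a, Bmpr2, Smad1 and Id3. Bmp2, Bmp7, Acvrl1 and Id1 had no entry. In the 250 bases before each RefSeq start site, both strands were searched for GGCGCC and GCCGNCGC (motifs of BMP-responsive elements), for GTCTAGAC (a pair of facing Smad boxes) and for ACGTG (the core bound by hypoxia-inducible factors). Each window below is 30 bases long, 5′ to 3′ on the strand of its gene, with the matches in capitals.
Bmp4, chr14:46390840-46390869, minus strand, upstream of the gene: tagtacctcttgCACGTGgtccccaggtga
Bmp6, chr13:38345577-38345606, plus strand, within an exon: ttcagggcagcgCACGTGtgcagactgcga
Bmpr1a, chr14:34502729-34502758, minus strand, within an intron: agtgcgcgcGCGCCGGCGCCtcttgctcgc
Bmpr1a, chr14:34502547-34502576, minus strand, within an exon: gagggaggctcgagctcccgcGCGTCGGCc
Bmpr2, chr1:59764162-59764191, plus strand, within an exon: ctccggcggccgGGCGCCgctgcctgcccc
The places are those of the GENCODE M21 annotation. Bmp4 and Bmp6 each held 1 palindrome, CACGTG, which counts as a match of ACGTG on both strands. Bmpr1a held 1 match of GGCGCC and 3 of GCCGNCGC, and in its first window the GGCGCC overlaps 2 matches of GCCGNCGC. Bmpr2 held 1 match of GGCGCC. The windows of Smad1 and Id3 held none of the 4 motifs, and GTCTAGAC was found in none of the 6. Over all 32851 promoters of the same length, GGCGCC was present in 9.59%, GCCGNCGC in 6.89%, GTCTAGAC in 0.167% and ACGTG in 16.6%. These matches are descriptions of the letters and not binding sites.

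The targeted gene did not follow its label. Setd2, which encodes the enzyme that trimethylates lysine 36 of histone H3, was at 71.5, 73.9 and 12.3 CPM under VHL-KO (replicates 1, 2 and 4, the order of all such values here) and at 79.6, 57.4 and 89.6 CPM under VHL-KO;SETD2-KO (replicates 2, 3 and 4). The difference was small against the spread (log2 fold change 0.52, SE 0.64, adjusted p = 0.787 by edgeR's quasi-likelihood test with Benjamini-Hochberg adjustment) and smaller still, at 0.052, without VHL-KO replicate 4. A gene count also takes reads from outside the deleted part, so it does not measure the deletion itself, and the genotypes below are those of the labels. The paper reports lower SETD2 and VHL in the renal tubules by Western blot, tissue staining and RT-qPCR, measures other than these counts. Vhl, named as deleted in both labels, differed by -0.26 (SE 0.43, adjusted p = 0.833 by edgeR), and by 0.12 (SE 0.22) without VHL-KO replicate 4. Cdh16, whose promoter drives the Cre, was at 531, 517 and 2257 CPM under VHL-KO and at 332, 684 and 359 CPM under VHL-KO;SETD2-KO. Its difference of -1.27 (SE 0.70, adjusted p = 0.625 by edgeR) rested on the same library and was -0.20 (SE 0.35) without it.

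The libraries held 11168552 to 17883466 counts. The library labelled VHL-KO replicate 4 stood apart: its rank correlation with each of the other 5 was 0.717 to 0.765, against 0.937 to 0.986 in the 10 pairs among the others, and its mitochondrially encoded share was 11.3% against 25.9% to 36.4%. Markers of proximal tubule were present in every library, at a summed 17151 to 31796 CPM under VHL-KO and 7795 to 11512 CPM under VHL-KO;SETD2-KO. Markers of other kidney cells were present as well. The 13 endothelial markers summed to 2253 to 2798 CPM under VHL-KO and to 6389, 2314 and 5471 CPM under VHL-KO;SETD2-KO, and the 10 podocyte markers to 1860 to 2476 CPM and to 5890, 2490 and 5283 CPM. In such bulk cells, fewer cells of a type and less RNA per cell cannot be told apart. The value without the library that stood apart is given beside each of the 10 genes, and beside other genes where that library turns the direction or moves the value by over 1.5 times.

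Among the ligands, Bmp2 (chromosome 2, 133552159 to 133562885, plus strand, GRCm38) is a classical inducer of bone and acts through Bmpr1a and Bmpr2. Under VHL-KO it was at 1.70, 2.96 and 0.935 CPM, from 28, 32 and 10 counts. Under VHL-KO;SETD2-KO it was at 5.42, 4.79 and 3.20 CPM, from 102, 85 and 51 counts. The labels did not overlap, but the lowest VHL-KO;SETD2-KO library lay close to the highest VHL-KO library. The log2 fold change was 1.26 (SE 0.56), and 0.95 (SE 0.41) without VHL-KO replicate 4. It was the gene with the fewest reads of the list, and its sign stayed the same in all 15 alternative analyses.

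Bmp4 (chromosome 14, 46383520 to 46390669, minus strand), a close relative of Bmp2 that acts in the branching of the ureteric bud, showed no such separation. It was at 16.9, 18.9 and 11.1 CPM under VHL-KO and at 15.3, 23.0 and 10.4 CPM under VHL-KO;SETD2-KO. The labels overlapped fully, the lowest and the highest library both being labelled VHL-KO;SETD2-KO. Its log2 fold change was 0.055 (SE 0.44), with the opposite sign in 4 of 15 alternatives, among them -0.14 (SE 0.33) without VHL-KO replicate 4.

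Bmp6 (chromosome 13, 38345107 to 38500302, plus strand), the ligand known for inducing hepcidin in the control of iron, was the most abundant of the 4 ligands. Its level was 58.0, 57.0 and 81.7 CPM under VHL-KO and 92.7, 56.0 and 79.0 CPM under VHL-KO;SETD2-KO. The lowest library of all was VHL-KO;SETD2-KO replicate 3 and the labels overlapped, and the fold change on the log2 scale was 0.21 (SE 0.40), or 0.40 (SE 0.23) without VHL-KO replicate 4.

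Bmp7 (chromosome 2, 172868012 to 172940321, minus strand) had the lower mean under VHL-KO;SETD2-KO, and that difference lay in 1 library. Its level was 30.6, 34.0 and 79.1 CPM under VHL-KO and 30.2, 32.3 and 28.4 CPM under VHL-KO;SETD2-KO. The 5 libraries other than VHL-KO replicate 4 sat within 28.4 to 34.0 CPM. The log2 fold change of -0.66 (SE 0.47) became -0.095 (SE 0.13) without that library.

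**Figure D1:**
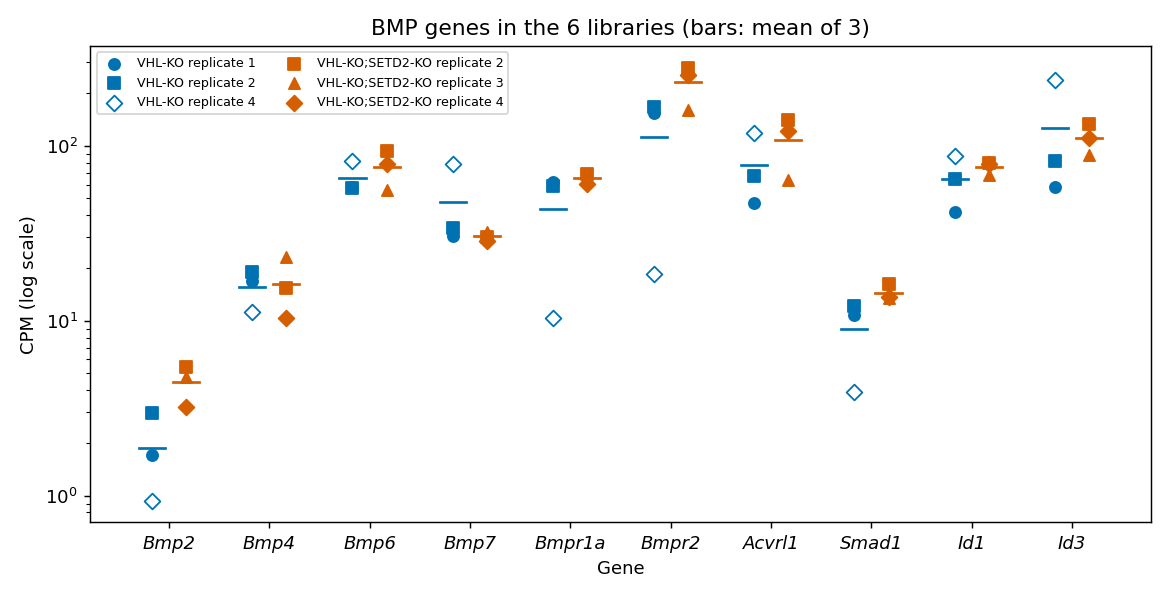
Level of each of the 10 BMP genes (horizontal axis) in CPM on a log scale (vertical axis), with 1 point per library, blue for libraries labelled VHL-KO and orange for VHL-KO;SETD2-KO, and a bar at the mean of 3. The open diamond, VHL-KO replicate 4, lies below its label in Bmp2, Bmp4, Bmpr1a, Bmpr2 and Smad1 and above it in Bmp6, Bmp7, Acvrl1, Id1 and Id3.

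Among the receptors, Bmpr1a (chromosome 14, 34410734 to 34503341, minus strand), the type I receptor ALK3, was even across 5 of the 6 libraries. Its level was 61.6, 59.2 and 10.4 CPM under VHL-KO and 69.2, 66.2 and 60.2 CPM under VHL-KO;SETD2-KO. The library labelled VHL-KO replicate 4 was far below the rest, and VHL-KO replicate 1 lay above the lowest VHL-KO;SETD2-KO library, so the labels overlapped. On the log2 scale the fold change was 0.58 (SE 0.63) with all libraries and 0.11 (SE 0.13) without VHL-KO replicate 4.

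Bmpr2 (chromosome 1, 59763400 to 59879014, plus strand), the type II receptor mutated in heritable pulmonary arterial hypertension, had the second largest fold change. Its level was 153.5, 166.0 and 18.4 CPM under VHL-KO and 279.9, 159.8 and 255.3 CPM under VHL-KO;SETD2-KO. VHL-KO;SETD2-KO replicates 2 and 4 were above every VHL-KO library, whereas replicate 3 fell between VHL-KO replicates 1 and 2. The log2 fold change was 1.04 (SE 0.74), fell to 0.53 (SE 0.27) without VHL-KO replicate 4 and was 1.25 (SE 0.87) without VHL-KO;SETD2-KO replicate 3.

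Acvrl1 (chromosome 15, 101128522 to 101145336, plus strand) was at 46.9, 67.1 and 117.7 CPM under VHL-KO and at 139.6, 63.7 and 120.9 CPM under VHL-KO;SETD2-KO. Again VHL-KO;SETD2-KO replicates 2 and 4 were above every VHL-KO library and replicate 3 was not. On the log2 scale the fold change was 0.49 (SE 0.50) with all libraries, 0.92 (SE 0.37) without VHL-KO replicate 4 and 0.77 (SE 0.54) without VHL-KO;SETD2-KO replicate 3. The same libraries stood high in the endothelial markers, and Acvrl1 amounted to 2.08%, 2.40% and 5.16% of their sum under VHL-KO and to 2.19%, 2.75% and 2.21% under VHL-KO;SETD2-KO. On that scale the VHL-KO;SETD2-KO libraries lay between VHL-KO replicates 1 and 2, or just above them, and below VHL-KO replicate 4. The part of endothelial RNA in the difference was not tested further.

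**Figure D2:**
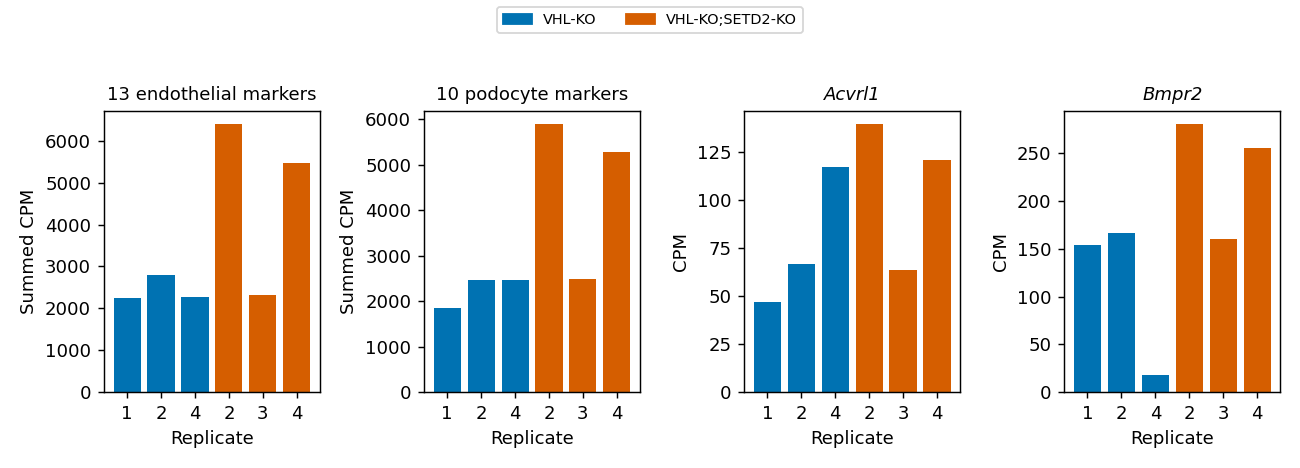
Summed CPM of 13 endothelial and of 10 podocyte markers and CPM of Acvrl1 and Bmpr2 (vertical axes, from 0), with 1 bar per library named by its replicate number, blue for VHL-KO and orange for VHL-KO;SETD2-KO. In all 4 panels VHL-KO;SETD2-KO replicates 2 and 4 are the highest bars and replicate 3 is at the height of VHL-KO libraries.

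Smad1 (chromosome 8, 79338395 to 79399518, minus strand) carries the signal from the receptors to the nucleus. Its level was 10.7, 12.1 and 3.93 CPM under VHL-KO and 16.2, 13.5 and 13.6 CPM under VHL-KO;SETD2-KO. The labels did not overlap, and VHL-KO replicate 4 was the farthest from the rest. The log2 fold change of 0.69 (SE 0.49) fell to 0.33 (SE 0.18) without that library.

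The target genes encode inhibitors of DNA binding, which bind basic helix-loop-helix factors and keep them from DNA. Id1 (chromosome 2, 152736251 to 152737410, plus strand) was at 42.0, 64.4 and 87.9 CPM under VHL-KO and at 79.5, 67.6 and 78.4 CPM under VHL-KO;SETD2-KO. VHL-KO replicate 4 was the highest library of all, and the other VHL-KO libraries were below every VHL-KO;SETD2-KO library. The log2 fold change was 0.22 (SE 0.41) with all libraries and 0.50 (SE 0.21) without VHL-KO replicate 4, while without VHL-KO replicate 1 it was -0.0012.

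Id3 (chromosome 4, 136143497 to 136145755, plus strand) was at 57.9, 82.2 and 239.0 CPM under VHL-KO and at 133.6, 88.6 and 110.4 CPM under VHL-KO;SETD2-KO. As in Id1, the highest library was VHL-KO replicate 4 and the other VHL-KO libraries were the lowest. Here that library set the sign, the log2 fold change being -0.19 (SE 0.58) with it and 0.66 (SE 0.24) without it. Relative to the endothelial marker sum, Id3 was at 2.57%, 2.94% and 10.5% under VHL-KO and at 2.09%, 3.83% and 2.02% under VHL-KO;SETD2-KO, which overlapped with or without VHL-KO replicate 4. On this scale the labels overlapped in all 10 genes, Bmp2 and Smad1 included. Bmp2 was at 0.0753%, 0.106% and 0.0410% under VHL-KO and at 0.0848%, 0.207% and 0.0585% under VHL-KO;SETD2-KO. The marker sum was itself highest in VHL-KO;SETD2-KO replicates 2 and 4, which lowers this ratio there for any gene, whatever its cell type. The ratio therefore does not show which cells these transcripts came from, and that was not tested.

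**Figure D3:**
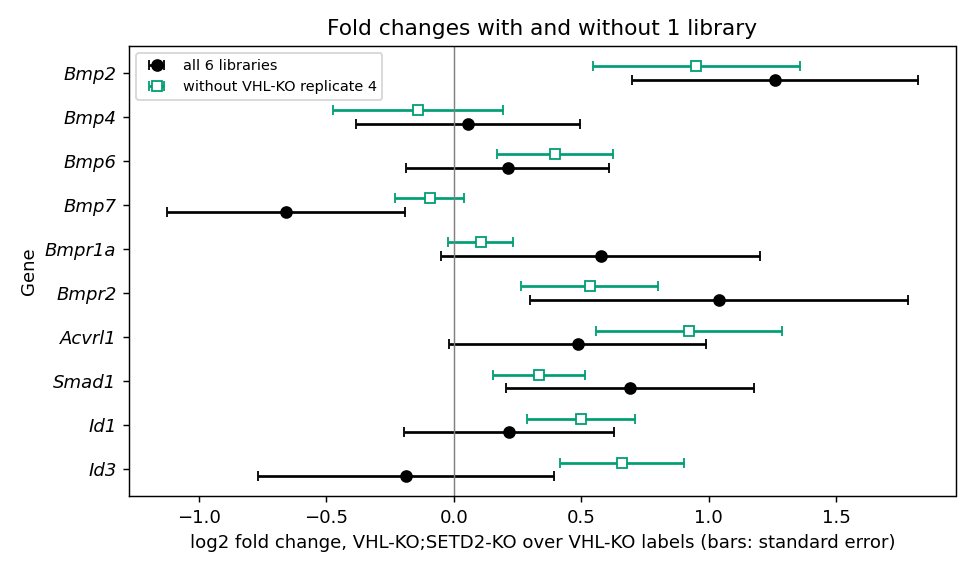
Log2 fold change of VHL-KO;SETD2-KO over VHL-KO (horizontal axis, bars are the standard error) for the 10 BMP genes (vertical axis), in black from all 6 libraries and in green without VHL-KO replicate 4. Id3 moves from -0.19 to 0.66, Bmp7 from -0.66 to -0.095 and Bmp4 from 0.055 to -0.14, and the bars are shorter without that library.

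Over the list as a whole, 8 genes had the higher mean level under VHL-KO;SETD2-KO and 2 the lower, with a median log2 fold change of 0.35 against 0.0093 over all genes tested. Of the 10, 0 met the unadjusted rule with edgeR, where 7.33% of all tested genes did, and 0 met it with an adjusted p, where 0.00684% did. DESeq2 and limma-voom each called 1 of the 10 unadjusted, Bmp2, beside 10.6% and 6.22% of all tested genes. The 2 genes without overlap, both higher, stand beside 9.62% of all tested genes, and 0 were without overlap in the lower direction, beside 11.0%. Here too the contrast was known when the list was drawn up.

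Without VHL-KO replicate 4, 2 of the 10 met the unadjusted rule, Acvrl1 and Id3, both higher. Of all genes tested, 15.4% met it in either direction and 8.29% in the higher. In that fit 4 were without overlap and higher (Bmp2, Smad1, Id1 and Id3), beside 20.5% of genes, and the median log2 fold change was 0.45 against 0.035 over all genes. Without VHL-KO;SETD2-KO replicate 3 instead, 4 were without overlap and higher (Bmp2, Bmpr2, Acvrl1 and Smad1), beside 20.1% of genes, and 1 was lower (Bmp7), beside 19.0%. Bmp2 and Smad1 were already without overlap with all libraries, so leaving a library out could not make them overlap. Their place in both of these counts was fixed in advance.

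Within the VHL-KO label, the 10 genes divided by base composition. The 5 with transcripts of 54% GC or more (Bmp6, Bmp7, Acvrl1, Id1 and Id3, 54.74% to 57.83%) were highest in VHL-KO replicate 4, and the 5 of under 53% (Bmp2, Bmp4, Bmpr1a, Bmpr2 and Smad1, 41.01% to 52.47%) were lowest in it. Its level relative to the mean of VHL-KO replicates 1 and 2 ran from 0.12 in Bmpr2 and 0.17 in Bmpr1a, the 2 genes of lowest GC content, to 2.45 in Bmp7 and 3.41 in Id3. A trend with GC content also ran across the transcriptome. Over 13810 genes the log2 difference between that library and the other 2 had a Spearman correlation of 0.74 with GC content. With transcript length it was -0.38. For the difference between VHL-KO replicates 2 and 1 these were 0.13 and 0.092. The median difference of VHL-KO replicate 4 was -2.17 in 3507 genes of under 45% GC and 1.55 in 2991 genes of 55% or more. In the 7312 genes of 45% to 55% it was 0.15. Bmp2, Bmp4 and Smad1 belonged to that middle class but were lower, at -1.16, -0.68 and -1.51, while Id1, also in it, was at 0.76. The trend over all genes therefore does not place these 3 genes. These correlations are across genes, which are not independent replicates. Setd2, at 44.28% GC, was likewise lowest in this library.

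**Figure D4:**
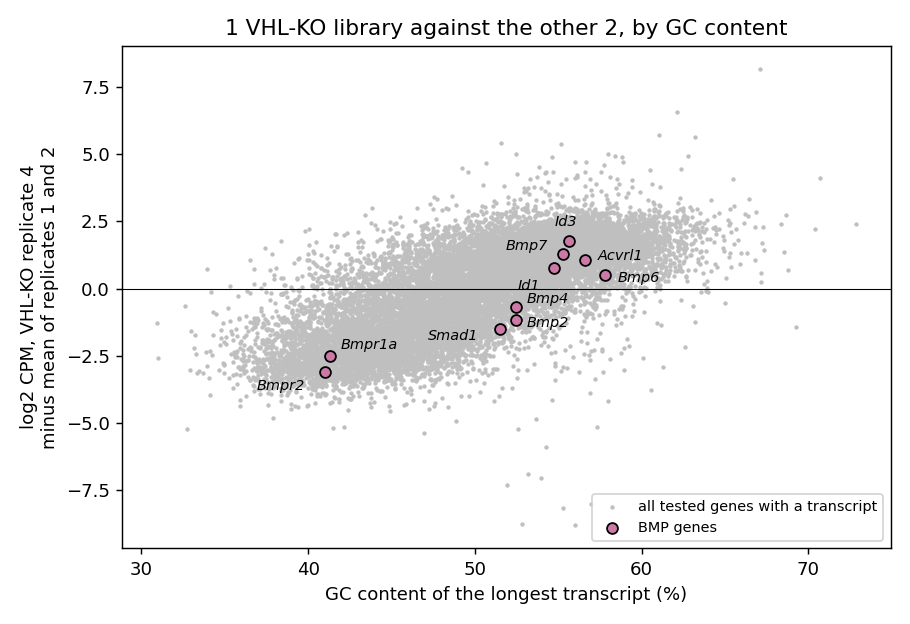
GC content of the longest transcript in percent (horizontal axis) against the log2 CPM of VHL-KO replicate 4 minus the mean of VHL-KO replicates 1 and 2 (vertical axis), with 1 grey point per tested gene and the 10 BMP genes named. Bmpr2 and Bmpr1a lie at the lower left and Id3 and Bmp7 at the upper right, along the trend of all genes (Spearman 0.74 over 13810 genes).

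Among the libraries labelled VHL-KO;SETD2-KO, replicate 3 was the lowest in 6 of the 10 genes (Bmp6, Bmpr2, Acvrl1, Smad1, Id1 and Id3). It was also the library with the lowest endothelial and podocyte sums of its label. All 13 endothelial markers were detected, 12 with the higher mean under VHL-KO;SETD2-KO and 0 without overlap between the labels or called by edgeR. All 10 podocyte markers had the higher mean, 3 were without overlap and 5 met the unadjusted rule. Beside these, 11 of 12 proximal tubule markers had the lower mean, 5 without overlap and 4 called unadjusted. Markers of thick limb and distal tubule summed to 1259 to 4825 CPM under VHL-KO and 1597 to 4368 CPM under VHL-KO;SETD2-KO, and 2 of the 7, Calb1 and Kcnj1, were higher without overlap and called unadjusted. Those of collecting duct summed to 54.7, 88.1 and 560 CPM and to 95.2, 324 and 101 CPM, with 2 of the 8, Atp6v1g3 and Slc26a4, likewise higher. The summed stromal markers were at 118, 107 and 573 CPM under VHL-KO and at 272, 264 and 119 CPM under VHL-KO;SETD2-KO. In both sums VHL-KO replicate 4 was the highest library, and the other VHL-KO libraries were below every VHL-KO;SETD2-KO library, for stromal markers only just. Of the 9 stromal markers tested, 1 was higher without overlap and called unadjusted. The immune markers summed to 171 to 787 CPM and 156 to 370 CPM. Of these 9 markers 7 had the lower mean, 1 without overlap and 2 called unadjusted. No marker of any of these lists was at or under 3 counts in all libraries, and the part of other cell types in the levels of the BMP genes was not tested.

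Per kilobase of exon, the levels of the 10 genes fell into an order that could be compared between genes. Id3 was at 66.2 ± 35.9 CPM per kilobase (SD over the 6 libraries) and Id1 at 60.3 ± 13.9, and Id3 was above Id1 in 2 of the 6 libraries, so the order of this pair is not settled. Acvrl1 followed at 21.7 ± 8.91 and Bmp6 at 18.1 ± 4.04, in this order in 5 of 6 libraries. Bmp7 (9.74 ± 4.90), Bmpr2 (9.57 ± 5.14), Bmpr1a (8.58 ± 3.45) and Bmp4 (7.09 ± 2.12) had spreads that overlapped. The order of this group is not settled, since Bmp7 was above Bmpr2 in 1 of 6 libraries, the one labelled VHL-KO replicate 4, and Bmpr2 was above Bmpr1a in 2 of 6, while Bmpr1a was above Bmp4 in 5 of 6. Smad1 (1.86 ± 0.67) and Bmp2 (0.891 ± 0.485) were the lowest, in the same order in 6 of 6 libraries. Bmp6 exceeded each of the other ligands on this scale, being above Bmp7 in 6 of 6 libraries.

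The rest of the pathway was followed in 55 further genes, of which 37 were tested. These lists too were chosen with earlier results of these data known, so their p-values and counts are descriptions and not an independent test. Of these 2 met the unadjusted rule in the higher direction and 1 in the lower, 0 passed with an adjusted p (lowest adjusted p = 0.625 by edgeR), and 26 had the higher mean. Over all tested genes 7.33% met the unadjusted rule. DESeq2 called 5 unadjusted, beside 10.6% of all tested genes. Their median log2 fold change was 0.51 against 0.0093 over all tested genes. Of the 37, 10 were without overlap and higher and 1 without overlap and lower, beside 9.62% and 11.0% of all tested genes. The genes that met the unadjusted rule were Smad9, Hey1 and Chrd.

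Of 10 other ligands, Bmp3 and Gdf5 had enough reads. Bmp3, a ligand that opposes other BMPs, was at 1.02 ± 0.11 CPM (SD, n = 3) under VHL-KO and 1.49 ± 0.19 under VHL-KO;SETD2-KO, without overlap. Gdf5, a ligand of joint formation, was at 1.31 ± 1.33 and 1.20 ± 0.91 CPM, and its log2 fold change turned from -0.12 (SE 0.99) to 1.01 (SE 1.02) without VHL-KO replicate 4. Bmp10 and Gdf7 had 0 counts in every library, and Gdf2, which encodes BMP9, had at most 1 count in any.

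All 9 other receptors and co-receptors were tested and 0 were called by edgeR. Eng (endoglin), the endothelial co-receptor that works with Acvrl1, was at 276, 362 and 580 CPM under VHL-KO and at 814, 331 and 557 CPM under VHL-KO;SETD2-KO, with a log2 fold change of 0.48 (SE 0.51), or 0.83 (SE 0.40) without VHL-KO replicate 4. Its libraries were ordered as those of Acvrl1 in part: VHL-KO;SETD2-KO replicate 2 was highest and replicate 3 was among the low VHL-KO libraries. Tgfbr3 (betaglycan) was at 35.2, 38.1 and 19.9 CPM and at 70.6, 51.4 and 56.5 CPM, without overlap, with a log2 fold change of 0.94 (SE 0.41, adjusted p = 0.625 by edgeR).

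The 3 other Smads of the pathway all had the higher mean under VHL-KO;SETD2-KO. Smad9, which like Smad1 is phosphorylated by the BMP receptors, was at 5.58, 3.70 and 1.68 CPM and at 9.51, 6.48 and 9.91 CPM, without overlap (log2 fold change 1.23, SE 0.53, unadjusted p = 0.047 and adjusted p = 0.625 by edgeR). Smad4, the partner shared by all receptor-regulated Smads, was without overlap at 0.57 (SE 0.52), and Smad5 was at 0.57 (SE 0.53) with overlap. Without VHL-KO replicate 4 these became 0.18 (SE 0.13) and 0.17 (SE 0.13). As in Smad1, VHL-KO replicate 4 was the lowest library in all 3.

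Among 16 secreted inhibitors and modulators, 10 were tested, 5 with the higher mean and 5 with the lower. Chrd (chordin), which binds BMPs and keeps them from their receptors, was at 5.88, 7.96 and 10.2 CPM under VHL-KO and at 3.29, 4.62 and 3.51 CPM under VHL-KO;SETD2-KO, without overlap. Its log2 fold change was -1.07 (SE 0.43, unadjusted p = 0.0371 and adjusted p = 0.625 by edgeR). Fstl1, a follistatin-like glycoprotein, was at 24.3 ± 2.53 CPM (n = 3) against 43.4 ± 15.1, and Crim1, a membrane protein that binds BMPs, at 71.0 ± 36.4 against 118.8 ± 7.81, both without overlap and higher. Without VHL-KO replicate 4 the log2 fold change of Crim1 went from 0.74 (SE 0.51) to 0.37 (SE 0.14).

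Of the 8 inhibitors inside the cell or in its membrane, 7 had the higher mean and 0 were called by edgeR. Smad7, an inhibitory Smad that blocks type I receptors, was the 1 gene of these without overlap, at 28.1, 37.4 and 22.4 CPM under VHL-KO and at 43.7, 37.7 and 46.0 CPM under VHL-KO;SETD2-KO. The closest libraries of the 2 labels nearly touched, and its log2 fold change was 0.53 (SE 0.38), or 0.37 (SE 0.18) without VHL-KO replicate 4. Ski, a corepressor of Smad complexes, differed by 0.16 (SE 0.39), or by 0.39 (SE 0.18) without that library. Fkbp1a, which holds type I receptors inactive, differed by -0.33 (SE 0.55) with it and by 0.45 (SE 0.18) without it, so that 1 library set the direction.

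Of the 9 other target genes, 5 were tested. Hey1, a transcriptional repressor also induced by Notch, was at 5.27, 6.57 and 4.96 CPM under VHL-KO and at 14.1, 12.8 and 8.09 CPM under VHL-KO;SETD2-KO, without overlap (log2 fold change 1.06, SE 0.41, unadjusted p = 0.0324 and adjusted p = 0.625 by edgeR). Id2, which belongs to the same family as Id1 and Id3, was at 191 ± 82.7 CPM against 184 ± 10.2, with a log2 fold change of -0.060 (SE 0.47), or -0.38 (SE 0.15) without VHL-KO replicate 4.

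**Figure D5:**
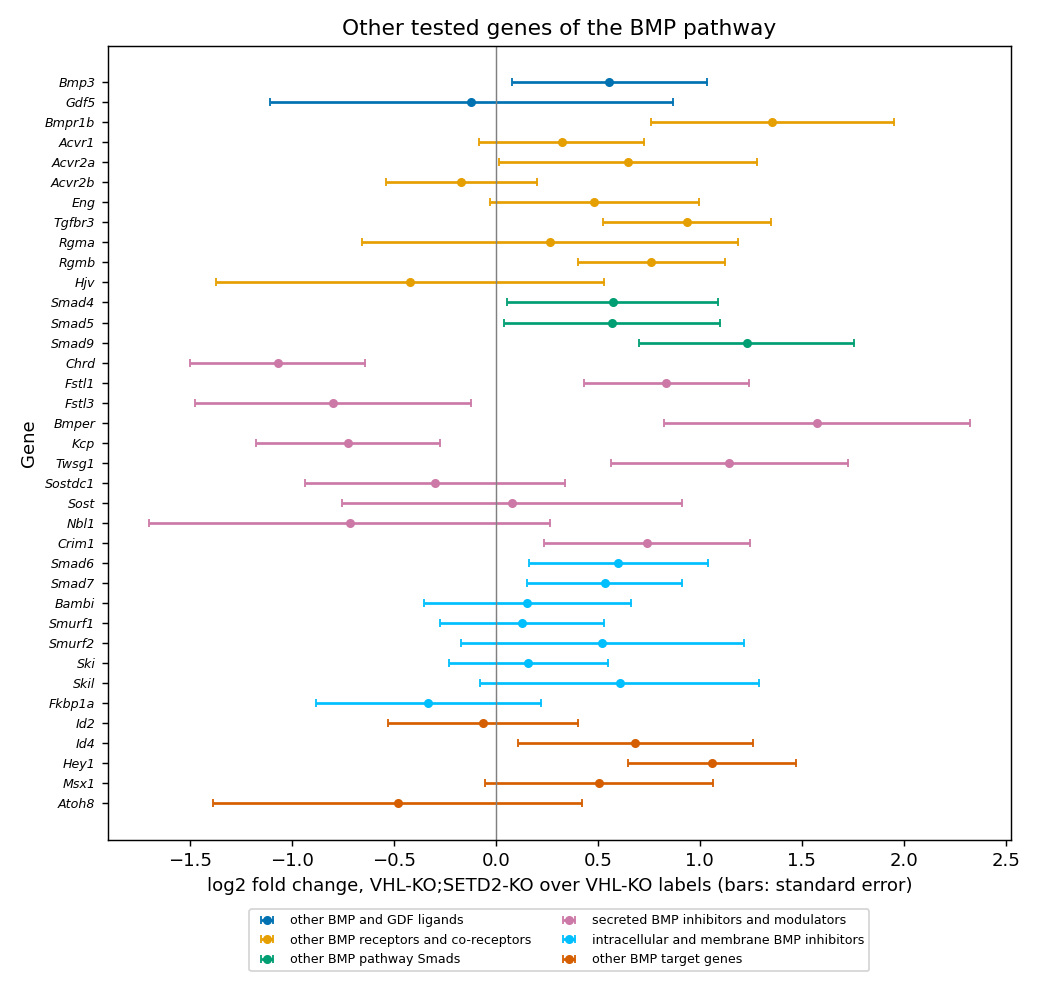
Log2 fold change of VHL-KO;SETD2-KO over VHL-KO (horizontal axis, bars are the standard error) for the 37 tested genes of the BMP pathway outside the list of 10 (vertical axis), coloured by their role. Smad9 (1.23) and Hey1 (1.06) are the 2 genes that met the unadjusted rule on the right, and Chrd (-1.07) the 1 on the left.

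Without VHL-KO replicate 4, 39 of the 55 genes were tested and 10 met the unadjusted rule, 9 of them higher (Tgfbr3, Rgma, Rgmb, Smad9, Fstl1, Nbl1, Smad6, Hey1 and Atoh8) and Chrd lower, where 15.4% of all genes tested met it in either direction. None passed with an adjusted p, the lowest being 0.129 for Tgfbr3 by edgeR. Smad9 (0.88, SE 0.31), Hey1 (0.98, SE 0.30) and Chrd (-0.86, SE 0.29) met the rule with and without that library, but not in every alternative. Smad9 lost it in 7 of 15 (RLE size factors, mitochondrial genes removed, the replicate block, and without VHL-KO replicate 2 or any of the 3 VHL-KO;SETD2-KO libraries). Hey1 lost it in 5 (the block, and without VHL-KO replicate 1 or 2 or VHL-KO;SETD2-KO replicate 2 or 3), and Chrd in 5 (no filter on low counts, the block, and without VHL-KO replicate 2 or VHL-KO;SETD2-KO replicate 2 or 4). Without VHL-KO;SETD2-KO replicate 2, 0 of the pathway genes were called by edgeR, beside 2.56% of all genes tested. Smad6, the inhibitory Smad induced by BMP signals, was at 0.93 (SE 0.26) without VHL-KO replicate 4 and at 0.60 (SE 0.44) with it. Nbl1 went from -0.72 (SE 0.98) with all libraries to 1.59 (SE 0.46) without VHL-KO replicate 4. Atoh8 likewise turned from -0.48 (SE 0.91) to 1.42 (SE 0.51), so that library set the direction of both. Rgma went from 0.27 (SE 0.92) to 1.83 (SE 0.72).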

How the data were processed

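RNA was sequenced from PTECs of 6 mice, 3 per label, which may differ by technical as well as biological spread. Per the submitters' processing notes, the authors aligned reads with HISAT2 2.0.4 to GRCm38. The deposited table holds whole-number counts per gene and library, not normalised. The counting program, annotation and use of strand are not given in the sources used here. Columns left unused numbered 0.

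Groups and replicates came from the sample labels. The members and lists were chosen with earlier results of these data known. Counts were filtered with filterByExpr, scaled by TMM (factors 0.831 to 1.16) and tested with edgeR 4.0.16 (R 4.3.3) by the quasi-likelihood test with Benjamini-Hochberg adjustment. Each SE of a log2 fold change was derived from that test, as its absolute value divided by the square root of the F statistic. Genes were called at p under 0.05 with 1.5-fold or more between the labels, the thresholds named in the methods. CPM were computed from these libraries, and 3 counts were worth 0.159 to 0.281 CPM. Alternatives used DESeq2 1.42.0, limma 3.58.1, other filters and scalings, a replicate block and each library left out. Named genes were all 10 members, Setd2, Vhl, Cdh16 and, of each pathway list, the genes called unadjusted and the 2 with the highest mean log2 CPM. Bmp10, Gdf7, Gdf2, Smad7, the 4 distal and collecting duct markers and the genes called without 1 library were named after their values were seen. Lengths and GC content came from GENCODE M21.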

Additional observations from a re-analysis of the deposited data

How the results depend on the processing

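Every fold change of Bmp2, Bmp6, Bmp7, Bmpr1a, Bmpr2, Acvrl1 and Smad1 kept its sign in all 15 alternatives, while Id1 changed sign in 1 and Bmp4 and Id3 in 4 each. With each library left out in turn, 385 to 2314 genes were called unadjusted (1071 with all) and 0 to 1 adjusted (1 with all). The unadjusted share was 2.56% to 15.4% of the genes tested. Beside it, 0 to 2 of the 10 BMP genes and 0 to 10 of the other pathway genes (0 and 3 with all) were called. Of the 10, 2 to 5 were without overlap, 2 to 4 of them higher (2 with all). Over all genes, 20.5% were without overlap and higher without VHL-KO replicate 4, and 20.1% without VHL-KO;SETD2-KO replicate 3. The cause was not tested. The lowest count of genes was without VHL-KO;SETD2-KO replicate 2 and the highest without VHL-KO replicate 4. DESeq2 called 57 genes adjusted, among them 0 of the 10 and 0 pathway genes. It gave no adjusted p for Smad9, Hey1, Chrd and several other pathway genes, which therefore could not be called adjusted. Unadjusted, DESeq2 called 1 of the 10 and 5 pathway genes, and limma-voom 1 of the 10, beside 10.6% and 6.22% of all tested genes. With no filter on low counts, 2 genes were called adjusted and 5 pathway genes unadjusted, beside 6.19% of all genes unadjusted. With at least 10 counts in every library, these were 0 and 5, with 1 of the 10 unadjusted, beside 7.8% of all genes. Setd2 was higher under VHL-KO;SETD2-KO in every alternative but was called in none.

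With the replicate number as a replicate block, 147 genes (1.01% of those tested) and 1 pathway gene (Bmper) were called unadjusted, and Bmpr2 stood at 2.27. Only replicates 2 and 4 occur under both labels, so the block rests on 2 pairs; the deviations of the same-numbered libraries correlated at 0.16 and -0.32 across genes, and the numbers are not shown to pair the mice.

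Chosen after seeing the data, DESeq2 without VHL-KO replicate 4 called 2518 genes unadjusted and 1251 adjusted, of 15000 tested. It called 3 of the 10 unadjusted (Bmp2, Acvrl1 and Id3), beside 16.8% of all genes. Of the pathway genes it called 13 unadjusted and 4 adjusted. In these libraries 4 of the 10 were without overlap, 4 of them higher, beside 20.5% of all genes without overlap and higher. An offset for GC content and transcript length, likewise chosen later, called 2011 genes unadjusted, 14.6% of those fitted, 1 of the 10 (Acvrl1, 0.88) and 6 pathway genes, and moved Id3 to 0.62 and Id1 to 0.73. Of the 10, Bmp2 had the fewest counts, 10 in its lowest library.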
